A study of Mus musculus with 24 samples.

Results

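Cytosolic ribosomal protein (RP) genes encode the proteins of the small and large subunits of the ribosome that translates nuclear-encoded mRNA. They were taken by symbol as Rpsa and the rows named Rps or Rpl, with a number or a P-stalk name, that reached 0.5 CPM (counts scaled to one common library total) in 3 or more samples. This gave 77 genes, 31 of the small and 46 of the large subunit, of 13901 genes tested and 39253 listed.

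The 24 samples were of Neuro2A, a mouse neuroblastoma line, in 8 groups of 3. A group was left untransfected, and another received an ataxin-2-targeting antisense oligonucleotide (ASO). The other 6 groups were transfected with plasmid for RfxCas13d, its high-fidelity form HiFi-RfxCas13d or DiCas7-11, which are RNA-guided RNA nucleases, each with a crRNA against mouse ataxin-2 (mATXN2) or a non-targeted (NTG) crRNA, and were harvested at 48 hr. Per the study's methods the effector was driven by the CAG promoter and the crRNA by the U6 promoter. The labels name no group given transfection reagent alone and none given a control oligonucleotide, so that the effector, the plasmid and the act of transfection cannot be told apart, nor the ASO's target from the oligonucleotide itself. How and for how long the ASO was given is not stated in the sources used here. Nor is a harvest time stated for the untransfected and ASO groups, so that any difference in time in culture cannot be told apart from treatment. The column names of the deposited table write EV and G12 where the sample labels write NTG and G10, which leaves uncertain what the control arm was given; it is called NTG here, after the labels.

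A ribosome is built from ribosomal RNA and a set of RPs made in matched amounts, and their mRNAs are short and among the most abundant in a dividing cell. Most of these mRNAs start with a 5′ terminal oligopyrimidine (TOP) tract, a cytosine followed by an unbroken run of pyrimidines, through which mTORC1 and the RNA-binding protein LARP1 control their translation and stability. Other TOP mRNAs encode translation elongation and initiation factors. The assembly of the subunits is the work of a separate group of genes, the ribosome biogenesis factors of the nucleolus.

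The TOP tract is shown for 5 RP genes that are described below, as RefSeq sequence of GRCm38.p6, the 15 bases before and the 15 bases from an annotated start of the first exon. The cytosine at the start and the pyrimidines that follow it are in capitals. The gene is followed by the position and strand.
Rpl35a (chr16:33056467-33056496, plus strand): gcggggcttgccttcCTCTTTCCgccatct
Rplp2 (chr7:141447636-141447665, plus strand): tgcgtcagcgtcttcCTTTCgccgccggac
Rps15a (chr7:118116133-118116162, minus strand): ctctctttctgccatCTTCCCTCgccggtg
Rpl35 (chr2:39005117-39005146, minus strand): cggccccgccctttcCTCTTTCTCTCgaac
Rps6 (chr4:86857353-86857382, minus strand): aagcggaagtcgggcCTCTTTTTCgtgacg
Of the 57 RP genes with a start in the table, 13 (22.8%) had a C followed by at least 4 pyrimidines exactly at an annotated start, against 3.0% of all 27025 genes with a start. A run of at least 8 pyrimidines on the coding strand within 25 bases of a start, which any TOP tract of that length also meets, was found for 52.6% of the RP genes and 22.3% of all genes. A start annotated a few bases off hides the tract, and no match says only that these letters are not in the window.

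The library totals were between 12665725 and 22504999 counts, with the 3 highest in the ASO samples. Of 14 markers of sympathetic neuroblasts, 13 were at or above 0.5 CPM on average, with a summed level of 2280 to 2460 CPM. Of this sum Chgb alone held 839 to 1040 CPM. Dbh (1.87 to 3.95 CPM), Th (0.454 to 1.42 CPM) and Nefl (0 to 0.269 CPM) were low. Markers of fibroblasts summed to 5.16 to 8.48 CPM and markers of immune cells to 0 to 2.28 CPM. Those of endothelial cells summed to 5.98 to 10.7 CPM and those of glia to 14.3 to 19.2 CPM. Of the immune markers only Cd68 was tested. It was higher with the ASO (1.37 against 0.199 CPM, log2 fold change 2.72). With the ASO, at an edgeR adjusted p under 0.05, 5 of 13 tested neuroblast markers were higher and 5 lower. Of 2 glia markers 1 was higher and 1 lower, of 2 fibroblast markers 0 and 1, and of 2 endothelial markers 0 and 0. Over all genes tested 21% were higher and 21.7% lower. The part of these markers in the RP results was not tested. The targeted gene Atxn2 was at 121 to 125 CPM in untransfected cells and at 48.9 to 54.2 CPM with the ASO. With the mATXN2 crRNA its difference from NTG was -6.87% for RfxCas13d (adjusted p = 0.178), -14.8% for HiFi-RfxCas13d (0.00157) and -13% for DiCas7-11 (0.00557), by edgeR's quasi-likelihood test with Benjamini-Hochberg adjustment. Replicate pairs of the DiCas7-11 NTG group differed by 3.33 to 5.59 times counting noise in chi-square, more than any pair of another group.

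In untransfected cells the RP genes lay far above the average gene. Their median level was 605 CPM, and per kilobase of transcript it was 733 CPM, against 10.5 CPM per kilobase over all genes tested with a length. Of the 100 highest genes on that scale, 55 were RP genes, and of the 200 highest, 69. Rpl23a (1774 CPM per kilobase), Rpl8 (1707) and Rps27a (1699), the last a fusion of ubiquitin and an RP, were the highest. Lengths are of the principal GENCODE M21 transcript, which is long for a few RP genes (5179 bases for Rps15a), so that the scale understates those.

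The RP genes did not all behave as tightly within a group. Over the 8 groups, the pooled coefficient of variation between replicates had a median of 2.04%, and 4 genes exceeded 5%: Rps6 (9.7%), Rpl30 (7.26%), Rpl26 and Rps29. Rps6, the small-subunit protein phosphorylated by S6 kinase, stood out as the lowest, at 15.1, 18.1 and 16.7 CPM in untransfected cells, where the next lowest RP gene, Rpl26, had a mean of 116 CPM. RP genes have many near-identical pseudogene copies that counting can share reads with, and whether the low value of Rps6 comes from this was not tested. Rows named as pseudogenes of these genes held 0.115% to 0.127% of the counts, and adding them to their parents changed no count of calls below by over 1.5 times.

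The summed RP genes took the largest share of counts in untransfected cells. The share was 5.502%, 5.535% and 5.538% in the 3 untransfected samples. In the ASO samples it was 5.19%, 5.198% and 5.153%. In the NTG arms it was 5.168% to 5.252% for RfxCas13d, 5.216% to 5.255% for HiFi-RfxCas13d and 5.173% to 5.268% for DiCas7-11. All 21 other samples lay below the lowest untransfected sample, and they did so too after TMM or RLE scaling or with pseudogene rows added. In bulk RNA, fewer cells with a high level and less RNA per cell cannot be told apart.

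**Figure D1:**
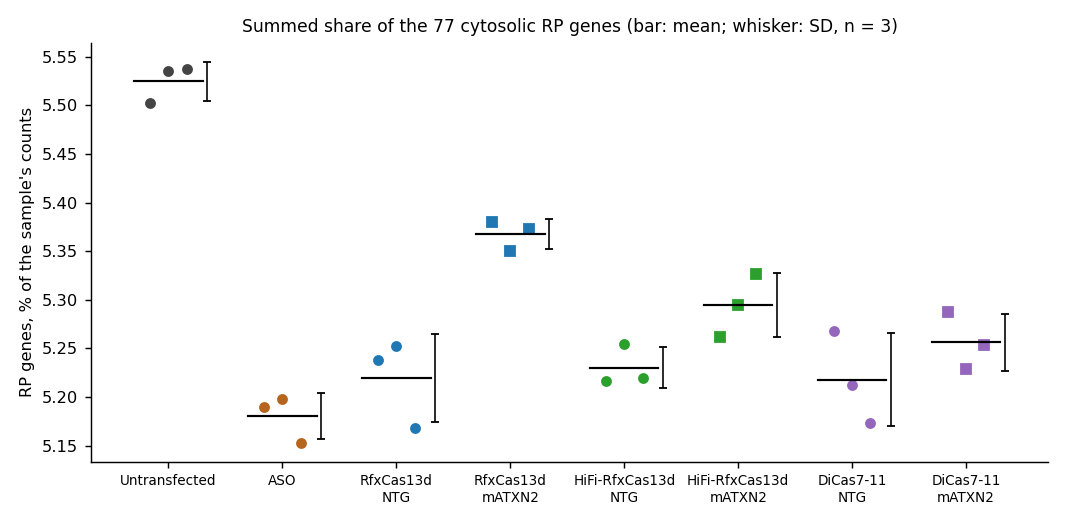
Share of each sample's counts, in percent, that fell on the 77 cytosolic RP genes. Points are samples (circles: untransfected, ASO or NTG; squares: mATXN2), bars group means and whiskers the SD of 3 samples; the axis does not start at 0. The untransfected samples, at 5.502% to 5.538%, lie above the other 21.

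Ordered by mean, the groups were untransfected (5.525% ± 0.02, SD, n = 3), RfxCas13d mATXN2 (5.368% ± 0.0157), HiFi-RfxCas13d mATXN2 (5.295% ± 0.0325), DiCas7-11 mATXN2 (5.256% ± 0.0291), HiFi-RfxCas13d NTG (5.23% ± 0.0215), RfxCas13d NTG (5.219% ± 0.045), DiCas7-11 NTG (5.218% ± 0.0478) and ASO (5.18% ± 0.024). Untransfected cells did not overlap with the next group, nor did RfxCas13d mATXN2 with the group after it. From HiFi-RfxCas13d mATXN2 downward, each group overlapped with its neighbour. No test was made of this sum, since its genes were chosen with results of these data known.

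The comparison of each NTG arm with untransfected cells asks what transfection and an effector did without a matching crRNA. All 3 arms, and the ASO, were set against the same 3 untransfected samples, so that their values are given side by side and are not independent of each other. RP genes past the threshold (adjusted p under 0.05, edgeR, over all genes tested) were all lower. With RfxCas13d 43 of 77 were lower and 0 higher, where 5.66% of all genes tested were lower and 5.6% higher. HiFi-RfxCas13d had 47 lower and 0 higher, against 10.6% and 10.3% of all genes. DiCas7-11 had 47 lower and 0 higher, against 10.8% and 11.1%. The ASO had 64 lower and 0 higher, against 21.7% and 21% of all genes.

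With library size alone in place of TMM the ASO had 46 RP genes lower and 0 higher, while over all genes 2426 were lower and 3746 higher in place of 3019 and 2919. The falls were small. The median log2 fold change over the 77 genes was -0.09 for RfxCas13d, -0.08 for HiFi-RfxCas13d, -0.07 for DiCas7-11 and -0.13 for the ASO, where the median over all genes tested was between -0.01 and 0.00. In percent these medians were -5.77%, -5.28%, -5.04% and -8.31%. The 3 samples of the arm lay below all 3 untransfected samples for 60 RP genes with RfxCas13d, 62 with HiFi-RfxCas13d, 45 with DiCas7-11 and 72 with the ASO. Of all genes tested, 14.6%, 18%, 16.4% and 26.1% did so. The RP genes are abundant, and a small change is more easily called in an abundant gene. Of the 2491 other genes with at least 100 CPM, 8.43% were called lower with RfxCas13d, 13.8% with HiFi-RfxCas13d, 15.1% with DiCas7-11 and 34.7% with the ASO, and in the NTG arms more of them were called higher (14.3%, 25.1% and 26.9%).

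**Figure D2:**
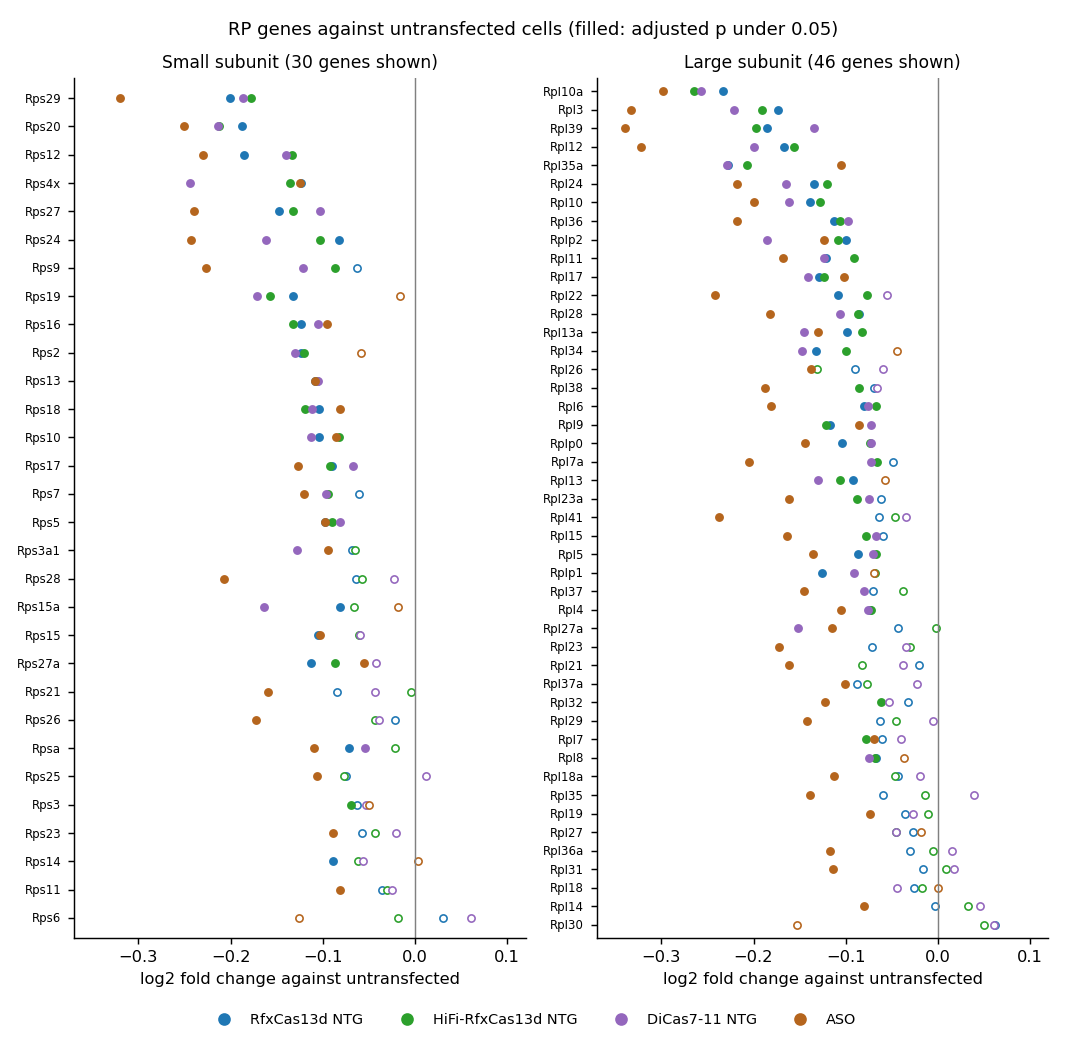
Log2 fold change of the RP genes (all but 1, which is not shown) against untransfected cells, small subunit on the left and large subunit on the right, with a point for each NTG arm and for the ASO (3 samples each); filled points passed the threshold. Nearly all points lie left of 0, and no filled point lies right of it.

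Across the 4 comparisons, 31 RP genes were called lower in all 4, 13 in 3, 9 in 2, 20 in 1 and 4 in none. The 31 came from both subunits. Of the 20 called in 1 comparison all but Rps14 (RfxCas13d) and Rps3 (HiFi-RfxCas13d) were called with the ASO, Rpl41 among them. The 4 that passed in none were Rpl27, Rpl18, Rps6 and Rpl30, named here after their values were seen.

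Rpl10a, a protein of the mobile L1 stalk where tRNA leaves the ribosome, had the largest fall in each NTG arm. Its level was 562, 569 and 565 CPM in untransfected cells. It was 476, 497 and 470 CPM with RfxCas13d NTG, 462, 474 and 477 CPM with HiFi-RfxCas13d NTG, 489, 451 and 479 CPM with DiCas7-11 NTG, and 467, 458 and 454 CPM with the ASO. None of these 12 samples reached the lowest untransfected one. The log2 fold changes were -0.23 ± 0.03 (SE; adjusted p = 7.6e-07), -0.26 ± 0.03 (7.11e-08), -0.26 ± 0.03 (1.13e-07) and -0.30 (edgeR, Benjamini-Hochberg).

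Rpl3 and Rpl12 were lower with the ASO than in the NTG arms (-0.14 and -0.15 on the log2 scale against the mean of the 3 arms, edgeR adjusted p = 1.43e-08 and 3.52e-08). Rpl3, which reaches towards the peptidyl transferase centre, was at 1277, 1282 and 1267 CPM in untransfected cells and at 1010, 1013 and 1014 CPM with the ASO. The 9 NTG samples lay in between, from 1073 to 1142 CPM, and overlapped with neither group. The ASO's log2 fold change was -0.33 ± 0.02 (edgeR adjusted p = 1.44e-14), against -0.17, -0.19 and -0.22 in the NTG arms. Rpl12, at the base of the stalk that recruits elongation factors, was at 985, 1009 and 984 CPM untransfected and at 797, 789 and 796 CPM with the ASO, a log2 fold change of -0.32 ± 0.02 (4.16e-13).

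Rpl39, Rpl41 and Rps29 encode very small RPs, and all 3 fell with the ASO. Rpl39, a basic protein of the exit tunnel, was at 315, 310 and 320 CPM untransfected and at 250.2, 251 and 245 CPM with the ASO, a log2 fold change of -0.34 ± 0.04 (edgeR adjusted p = 1.03e-08). Rpl41, the smallest RP, was at 928, 950.3 and 929 CPM untransfected and at 784, 802 and 796 CPM with the ASO. In the NTG arms Rpl41 was at 875 to 925 CPM, below each untransfected sample but not past the threshold in any of the 3. Rps29, a zinc-binding protein of the small-subunit head, was at 346, 359 and 356 CPM untransfected and at 289, 290.2 and 271 CPM with the ASO; with RfxCas13d NTG (299, 322 and 301 CPM) it fell by 0.20 ± 0.05 on the log2 scale (0.00987), a call lost without RfxCas13d NTG replicate 1 (0.0565) or 3 (0.0536).

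Some genes fell in the NTG arms and less, or not past the threshold, with the ASO. Rps19, mutated in Diamond-Blackfan anaemia, was at 316, 313 and 316 CPM untransfected and at 313, 312 and 311 CPM with the ASO, a log2 fold change of -0.02 that did not pass. It was at 291, 296 and 276 CPM with RfxCas13d NTG, at 278, 290 and 280 CPM with HiFi-RfxCas13d NTG and at 302, 252 and 287 CPM with DiCas7-11 NTG, all below the ASO samples. Rpl35a, another gene of that anaemia, was at 216, 220 and 221 CPM untransfected, at 207, 209 and 195 CPM with the ASO and at 172 to 200.03 CPM over the 9 NTG samples, which overlapped with the ASO samples. Its log2 fold changes were -0.23 ± 0.04 for RfxCas13d (edgeR adjusted p = 4.38e-04), -0.21 ± 0.04 for HiFi-RfxCas13d (5.98e-04), -0.23 ± 0.04 for DiCas7-11 (1.98e-04) and -0.10 ± 0.04 for the ASO (0.0362).

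Of the P-stalk genes, Rplp0 was at 1481, 1517 and 1503 CPM untransfected and at 1345, 1364 and 1364 CPM with the ASO, and passed in all 4 comparisons, as did Rplp2, while Rplp1 passed in the RfxCas13d and DiCas7-11 arms. Rpl5 and Rpl11, which with 5S rRNA form the particle that binds Mdm2, passed in all 4, with falls of 0.07 to 0.17 on the log2 scale. Rpl4 and Rpl10 also passed in all 4. Rps20, of the small-subunit head, fell by 0.21 ± 0.03 on the log2 scale with HiFi-RfxCas13d (edgeR adjusted p = 8.2e-06). Over the small subunit the median log2 fold changes were -0.09, -0.09, -0.10 and -0.11 for RfxCas13d, HiFi-RfxCas13d, DiCas7-11 and the ASO. Over the large subunit they were -0.08, -0.08, -0.07 and -0.14.

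The genes that work beside the RP genes moved in both directions. Of 16 other TOP genes, 8, 7, 8 and 10 were lower and 0 higher in the RfxCas13d, HiFi-RfxCas13d, DiCas7-11 and ASO comparisons. Eef2, the translocation factor, had a mean of 3237 CPM untransfected, 2832 CPM with RfxCas13d NTG, 2765 CPM with HiFi-RfxCas13d NTG, 2655 CPM with DiCas7-11 NTG and 2610 CPM with the ASO. Its log2 fold changes were -0.19, -0.23, -0.29 and -0.31 (edgeR adjusted p between 1.02e-11 and 1.79e-08 in the NTG arms and 1.68e-13 with the ASO).

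Of the 45 ribosome biogenesis factors, 18, 32, 32 and 31 were called higher in the same order, and 0, 0, 0 and 2 lower, with medians of 0.11, 0.16, 0.17 and 0.18 on the log2 scale. Dkc1, the pseudouridine synthase of box H/ACA particles, had a mean of 117 CPM untransfected and 135, 139, 144 and 138 CPM in the 4 other groups. Polr1b, the second largest subunit of RNA polymerase I, had 99.1 CPM untransfected and 111 CPM with RfxCas13d NTG and 115 CPM with HiFi-RfxCas13d NTG. The nucleolar protein nucleolin (Ncl) had 2305 CPM untransfected and 2552, 2624, 2682 and 2478 CPM. Each of these 3 genes was called higher in all 4 comparisons. Nop10, a very small H/ACA protein, was an exception with the ASO, at 31 CPM against 39.1 CPM (edgeR adjusted p = 3.12e-05, lower).

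Genes that regulate the TOP mRNAs showed no single direction. Of 18, 4, 5, 5 and 7 were higher and 2, 0, 2 and 4 lower with RfxCas13d, HiFi-RfxCas13d, DiCas7-11 and the ASO. Larp1, which binds the TOP tract, had a mean of 682 CPM untransfected, 721 CPM with RfxCas13d NTG, 736 CPM with HiFi-RfxCas13d NTG and 769 CPM with the ASO, called higher in these 3, and 707 CPM with DiCas7-11 NTG, which did not pass. Mtor was lower with RfxCas13d NTG (89.2 against 99.2 CPM, edgeR adjusted p = 0.0274) and higher with the ASO (111 CPM, 0.00252). Mycn, which is a driver of human neuroblastoma, was lower with the ASO (14.8 against 20.9 CPM, 1.86e-04). Of 9 snoRNA host genes, themselves often TOP transcripts, 5 were higher and 1 lower with the ASO, with Snhg12 at 37.2 against 18.8 CPM, while 0, 1 and 0 were higher and 0, 2 and 3 lower in the NTG arms.

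The mitochondrial RP genes, which are built into another ribosome, had medians on both sides of 0. Of 78, 3, 6, 8 and 11 were higher and 1, 2, 3 and 17 lower in the RfxCas13d, HiFi-RfxCas13d, DiCas7-11 and ASO comparisons, with medians of 0.00, 0.01, 0.04 and -0.02 on the log2 scale and, with DiCas7-11, 53 of 78 above 0. Of 78 oxidative phosphorylation subunits 1, 5, 6 and 3 were higher and 8, 12, 12 and 35 lower, with medians of -0.05, -0.04, -0.02 and -0.09. Among the 5 tested paralogs of RP genes, Rpl7l1 was higher in all 4 comparisons and Rpl36al was lower with RfxCas13d and the ASO (170 against 233 CPM with the ASO).

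**Figure D3:**
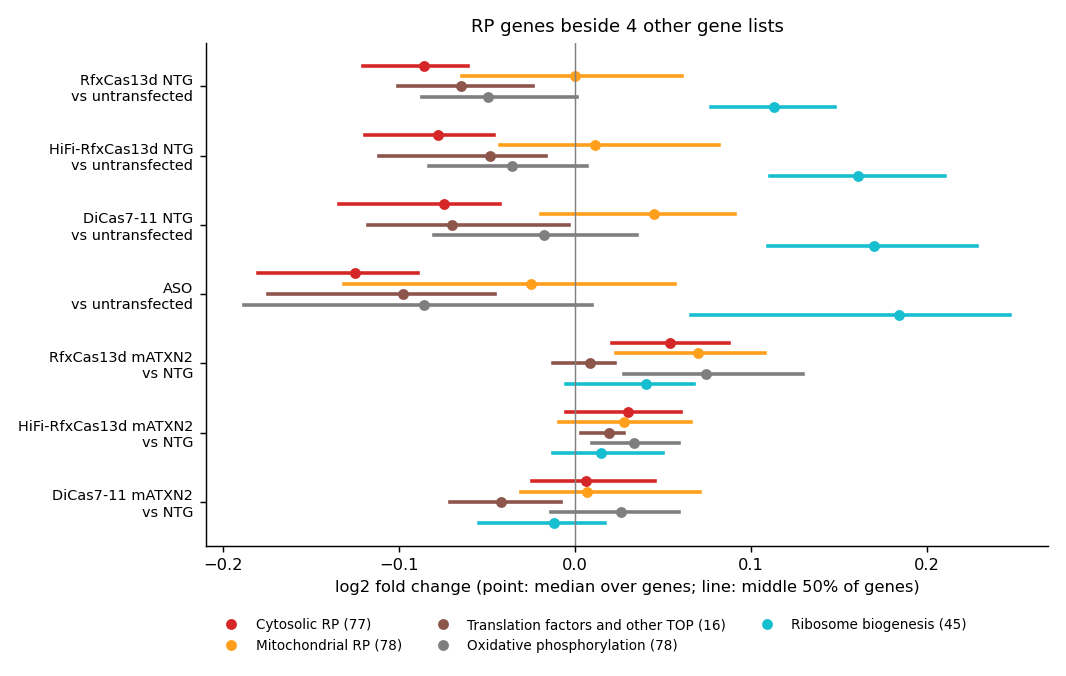
Median (point) and middle 50% of genes (line) of the log2 fold change for the cytosolic RP genes and 4 other lists, in the 4 comparisons with untransfected cells and the 3 of mATXN2 with NTG. Against untransfected cells the RP genes lie below 0 and the ribosome biogenesis genes above it, with medians of -0.13 and 0.18 for the ASO.

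Other short transcripts also lay below 0 at the median. The median transcript of an RP gene was 886 bases, against 3017 bases over all genes tested with a length. The 690 other genes under 1000 bases had median log2 fold changes of -0.04, -0.04, -0.03 and -0.08 in the RfxCas13d, HiFi-RfxCas13d, DiCas7-11 and ASO comparisons, and the 67 of them with at least 100 CPM were called lower in 16.4%, 20.9%, 23.9% and 50.7%. When each library was corrected for a trend on transcript length, 22, 18, 29 and 38 RP genes were lower than in untransfected cells past the threshold and 0, 0, 0 and 2 were higher. The medians were then -0.05, -0.05, -0.05 and -0.06. Rpl10a, Rpl3, Rpl12 and Rps20 passed in all 4 comparisons after the correction. Rps29 did not pass with RfxCas13d (adjusted p = 0.124) or HiFi-RfxCas13d (0.139), and Rpl35a had a log2 fold change of 0.01 with the ASO.

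**Figure D4:**
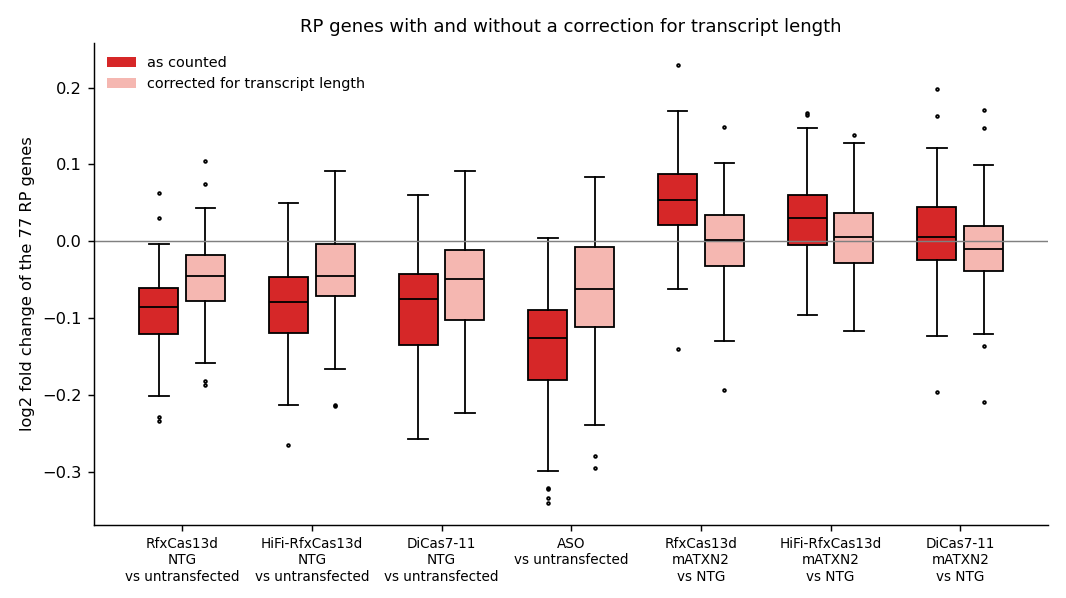
Log2 fold change of the 77 RP genes as counted (dark) and after a correction of each library for transcript length (light); boxes hold the middle 50% of genes with the median, whiskers reach 1.5 times the box's height and points lie beyond. Against untransfected cells the medians move towards 0 and stay below it, and for RfxCas13d mATXN2 against NTG the median moves from 0.05 to 0.00.

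Without untransfected replicate 3, 28 RP genes were lower with RfxCas13d NTG in place of 43. With only the groups compared in the fit, 22 were lower with DiCas7-11 NTG in place of 47, the arm whose replicates differed most.

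The effectors were compared over both crRNA arms, 6 samples against 6. HiFi-RfxCas13d and RfxCas13d, which differ by substitutions in the same protein, had no RP gene past the threshold between them. 0 were higher and 0 lower, where 1.37% and 1.96% of all genes tested passed. At an unadjusted p under 0.05 (edgeR) there were 8 of the 77 RP genes and 2260 of the 13901 genes tested. The differences ran from -0.06 to 0.06 on the log2 scale, with a median of 0.00. DESeq2 and limma-trend also called 0.

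DiCas7-11 differed from RfxCas13d in 16 RP genes, with 14 lower and 2 higher in DiCas7-11, where 6.06% of all genes tested were lower and 5.29% higher. Among the 2491 other genes with at least 100 CPM the shares were 13.1% and 13%. Of the 67 of these under 1000 bases, 17.9% were lower and 4.48% higher, near the shares of the RP genes. The median over the 77 genes was -0.01, with 51 below 0 and 26 above. HiFi-RfxCas13d had 9 RP genes above DiCas7-11 and 0 below (4.05% and 3% of all genes tested). Of the 2491 other genes with at least 100 CPM 11.5% were higher with HiFi-RfxCas13d, near the share of the RP genes. Both comparisons use the same 6 DiCas7-11 samples. With library size alone DiCas7-11 had 10 RP genes below and 3 above RfxCas13d, and the split of all genes turned from 843 lower and 736 higher to 725 and 964. HiFi-RfxCas13d then had 9 RP genes above DiCas7-11 and 1 below. The split of all genes turned there from 563 higher and 417 lower to 461 and 618.

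Rps4x, the X-linked small-subunit gene, had the largest difference from RfxCas13d. It was at 1340, 1294 and 1346 CPM in DiCas7-11 NTG and at 1317, 1329 and 1331 CPM in DiCas7-11 mATXN2. With RfxCas13d it was at 1442, 1445 and 1440 CPM (NTG) and 1545, 1518 and 1500.2 CPM (mATXN2), and with HiFi-RfxCas13d at 1413, 1447 and 1431 CPM (NTG) and 1492, 1512 and 1496 CPM (mATXN2). The DiCas7-11 samples lay below every other sample, the untransfected ones included (1547 to 1587 CPM). The log2 difference was -0.16 ± 0.01 from RfxCas13d (edgeR adjusted p = 2.17e-09) and 0.14 ± 0.01 for HiFi-RfxCas13d over DiCas7-11 (1.37e-08).

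Rpl27a was lower with DiCas7-11 than with either Cas13d form. It was at 643, 643 and 647 CPM untransfected, at 617 to 641 CPM over the 6 RfxCas13d samples and at 634 to 655 CPM over the 6 HiFi-RfxCas13d samples. With DiCas7-11 it was at 576, 595 and 569 CPM (NTG) and 553, 558 and 559 CPM (mATXN2), with no overlap with these, while the ASO samples were at 588 to 599.98 CPM. The log2 difference was -0.15 ± 0.01 from RfxCas13d (edgeR adjusted p = 2.18e-08), and HiFi-RfxCas13d was 0.17 ± 0.01 above DiCas7-11 (1.62e-09).

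Rplp2, of the P stalk, was at 235 to 246 CPM over the 6 DiCas7-11 samples, at 247 to 281 CPM with RfxCas13d and at 251 to 264 CPM with HiFi-RfxCas13d, a log2 difference of -0.13 ± 0.02 from RfxCas13d (edgeR adjusted p = 3.16e-04). Rps15a showed the same order, at 344 to 357 CPM with DiCas7-11 against 365 to 411 CPM with RfxCas13d. Rps3a1 was 0.13 ± 0.02 higher on the log2 scale with HiFi-RfxCas13d than with DiCas7-11 (1.57e-05), though the samples overlapped (912 to 991 against 828 to 931 CPM). The other way, Rpl35, at the tunnel exit, and Rps25, needed by some viral internal ribosome entry sites, were 0.07 ± 0.02 higher with DiCas7-11 than with RfxCas13d (0.0242 and 0.0295). Rps25 did not pass with only the groups compared (adjusted p = 0.067), nor without RfxCas13d NTG replicate 2 or 3, RfxCas13d mATXN2 replicate 2 or 3, DiCas7-11 NTG replicate 2 or 3, or DiCas7-11 mATXN2 replicate 1 (0.0524 to 0.0936, edgeR). Rpl35 did not pass without RfxCas13d NTG replicate 3, RfxCas13d mATXN2 replicate 3, DiCas7-11 NTG replicate 2 or DiCas7-11 mATXN2 replicate 1 (0.0514 to 0.078). After the correction for transcript length Rps4x, Rpl27a, Rplp2 and Rps15a remained past the threshold in both comparisons, with Rps4x at -0.15 and Rpl27a at -0.14 against RfxCas13d.

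**Figure D5:**
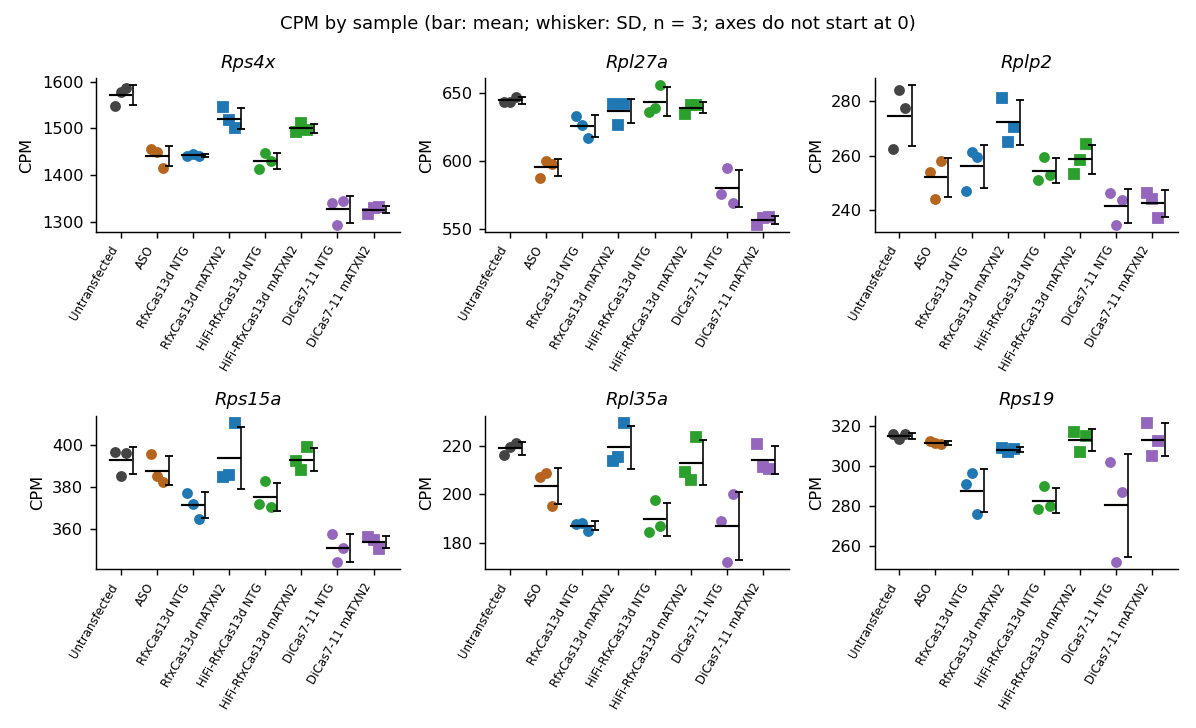
CPM of 6 RP genes in every sample of the 8 groups (circles: untransfected, ASO or NTG; squares: mATXN2; bars: means; whiskers: SD, n = 3); the axes do not start at 0. Rps4x, Rpl27a, Rplp2 and Rps15a are lower in the DiCas7-11 samples than in the samples of the other effectors, and for Rpl27a and Rplp2 they overlap with the ASO samples; Rpl35a and Rps19 are lower in the NTG arms than in the mATXN2 arms.

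Other TOP genes differed between these effectors as well. Of 16, 5 were lower with DiCas7-11 than with RfxCas13d and 6 higher with HiFi-RfxCas13d than with DiCas7-11. Eef2 had means of 2623 CPM with DiCas7-11, 2843 CPM with RfxCas13d and 2774 CPM with HiFi-RfxCas13d, and Pabpc1, the poly(A)-binding protein, 1459, 1577 and 1574 CPM. Ribosome biogenesis genes were higher with DiCas7-11 than with RfxCas13d in 9 of 45 and lower in 3. Without RfxCas13d mATXN2 replicate 3, 10 RP genes were lower with DiCas7-11 and 0 higher; with only the groups compared in the fit the counts were 9 and 1.

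The ASO was also set against the mean of the 3 NTG arms, a comparison added after the values had been seen. With the ASO 42 RP genes were lower and 8 higher, where 20.9% of all genes tested were lower and 19.5% higher, and the median was -0.06. Abundant genes in general were lower here: of the 2491 other genes with at least 100 CPM 43.8% were called lower, and of the 67 of these under 1000 bases 50.7%, shares near the one of the RP genes. Rpl41 (-0.19 ± 0.02, edgeR adjusted p = 1.83e-08), Rpl39 (-0.17 ± 0.03, 3.77e-05) and Rpl30 (-0.21 ± 0.05, 0.00255) had the largest falls. Rps19 (0.14 ± 0.03, 5.75e-04), Rpl35a (0.12 ± 0.03, 0.00499) and Rps15a (0.09 ± 0.02, 0.0011) had the largest rises. With library size alone in place of TMM, 25 were lower and 19 higher, with a median of -0.02 where that of all genes was 0.04, and with the correction for transcript length 23 were lower and 15 higher.

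The comparison of mATXN2 with NTG within an effector asks what the targeting crRNA added. With RfxCas13d 13 RP genes rose and 0 fell, where 0.914% of all genes tested rose and 0.475% fell, with a median of 0.05. In the same comparison the oxidative phosphorylation subunits had a median of 0.07 with 8 of 78 higher and 0 lower, the mitochondrial RP genes a median of 0.07 with 2 of 78 higher and 0 lower, and 10.4% of the 67 other genes under 1000 bases with at least 100 CPM were higher. With HiFi-RfxCas13d 1 rose and 0 fell (0.281% and 0.0144% of all genes), with a median of 0.03. With DiCas7-11 2 rose and 1 fell (0.554% and 0.388%), with a median of 0.01. The differences between the effectors in this response were tested directly. For RP genes 0 passed in either direction in each of the 3 pairs, and 0 (0%) of all genes passed. At an unadjusted p under 0.05 (edgeR) there were 10, 13 and 9 RP genes, counts that were not set against those of all genes. DESeq2 and limma-trend called 0 RP genes in these 3 tests.

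Rpl35a rose with the mATXN2 crRNA in 2 effectors. From 188, 188 and 185 CPM with RfxCas13d NTG it went to 214, 215 and 230 CPM, a log2 fold change of 0.23 ± 0.04 (edgeR adjusted p = 0.00281). From 189, 172 and 200.03 CPM with DiCas7-11 NTG it went to 221, 211 and 210 CPM, a log2 fold change of 0.20 ± 0.04 (0.0138). With HiFi-RfxCas13d it was at 184, 198 and 187 CPM and then at 209, 206 and 224 CPM, with no overlap, and did not pass. In each effector the mATXN2 samples lay around the untransfected level (216 to 221 CPM).

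Rps19 had the same order of groups. It was at 305 to 322 CPM in the 3 DiCas7-11 mATXN2 samples, above the 302, 252 and 287 CPM of its NTG arm (log2 fold change 0.16 ± 0.04, edgeR adjusted p = 0.0329), and at 307 to 317 CPM in the 6 mATXN2 samples of the other 2 effectors. Rpl39 (0.17 ± 0.04, adjusted p = 0.0158) and Rpl34 (0.16 ± 0.04, 0.0172) rose with RfxCas13d. Rps3a1 fell with DiCas7-11, from 870.2, 931 and 884 CPM to 833, 829 and 828 CPM (-0.11 ± 0.03, 0.0311). Mtor rose with RfxCas13d (0.27 ± 0.04, 0.00116) and DiCas7-11 (0.19 ± 0.04, 0.0298).

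These calls were less stable than those against untransfected cells. With any 1 of the 6 RfxCas13d samples left out, 0 to 6 RP genes were called in place of 13, with 0 without mATXN2 replicate 3. After the correction for transcript length Rpl39 (0.10, adjusted p = 0.227), Rpl34 (0.09, 0.242) and Rpl35a (0.15, 0.052) did not pass with RfxCas13d, nor Rps19 with DiCas7-11 (0.15, 0.0521), by edgeR. Rpl35a, Rpl39 and Rpl34 also did not pass without RfxCas13d mATXN2 replicate 3 (0.0597, 0.122 and 0.131), and Rpl35a, Rps19 and Rps3a1 with DiCas7-11 did not when NTG replicate 2 (0.202, 0.354 and 0.314) or mATXN2 replicate 1 (0.122, 0.199 and 0.121) was left out, or with only the groups compared (0.183, 0.39 and 0.375). Rpl39 was also lost without RfxCas13d NTG replicate 2 or 3 or mATXN2 replicate 1, Rpl34 without NTG replicate 1 or mATXN2 replicate 2, and Rps19 and Rps3a1 without DiCas7-11 mATXN2 replicate 2 or 3. The 690 other genes under 1000 bases also had a median of 0.05 with RfxCas13d, and after the correction for transcript length the median of the RP genes was 0.00, with 1 higher and 3 lower. Leaving out single samples gave 0 for HiFi-RfxCas13d each time and 0 to 14 for DiCas7-11, with 14 without NTG replicate 1 and 0 without NTG replicate 2 or mATXN2 replicate 1.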

How the data were processed

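RNA-seq libraries (stranded mRNA kit, single-end reads) were made from 24 Neuro2A samples. Per the labels and the study's methods, the authors quantified reads with Salmon 1.5.2 against an NCBI mouse transcriptome (GRCm39), with sequence and GC bias corrections and reads with several matches kept. The expected counts they deposited are tximport lengthScaledTPM values per gene, which carry library size and an average transcript length.

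The expected counts were rounded. The 13901 genes that reached 0.5 CPM in 3 or more samples were tested with edgeR 4.0.16 in R 4.3.3, by the quasi-likelihood test after TMM normalization, with 1 coefficient for each of 8 groups over 24 samples and Benjamini-Hochberg adjustment within a comparison (threshold 0.05). SE is the log2 fold change divided by the square root of F. Genes outside the tested set held 0.0524% of counts. Precision is set by sequencing depth and by how far the 3 samples of a group differ; the study describes these as independent samples, and if they were not separate cultures the p-values measure technical spread.

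The RP genes and other lists were chosen with earlier results of these data known. Named were, in each comparison, the 3 largest rises and falls among called RP genes, a list of RP genes by role, and called genes of the other lists; other genes were named after their values were seen. Alternatives were RLE factors, library size alone, TMM without RP genes, no filter, DESeq2 1.42.0, limma-trend 3.58.1 (prior count 3, adjusted over 10 comparisons together where a comparison is among these), only the groups compared, a replicate block, pseudogene rows added, leaving out each sample, and a lowess correction (span 0.3) on transcript length. Lengths are GENCODE M21 (GRCm38), another build than the authors', for all 77 RP genes and 88.5% of genes tested. Scripts were tested on simulated data. Values of some genes are not reported here.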

Additional observations from a re-analysis of the deposited data

How the results depend on the processing

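Against untransfected cells, the median of the RP genes stayed below 0 under each alternative and with any 1 sample left out, but the number called did not hold. With the transcript length correction it was 22 for RfxCas13d NTG (43 before), 18 for HiFi-RfxCas13d NTG (47), 29 for DiCas7-11 NTG (47) and 40 for the ASO (64). The correction also gave 1 for HiFi-RfxCas13d against RfxCas13d (0 before), 4 for the mATXN2 crRNA with RfxCas13d (13) and 0 with HiFi-RfxCas13d (1). With only the groups compared in the fit the numbers were 22 for DiCas7-11 NTG against untransfected, 2 for HiFi-RfxCas13d against RfxCas13d, 10 for DiCas7-11 against RfxCas13d (16), and 25, 4 and 0 for the crRNA with RfxCas13d, HiFi-RfxCas13d and DiCas7-11 (13, 1 and 3). For the crRNA, limma-trend called 27, 14 and 14 in that order, DESeq2 called 5 with HiFi-RfxCas13d, library size alone called 0 with HiFi-RfxCas13d, and no filter gave 7 with HiFi-RfxCas13d, 9 with DiCas7-11 and 1 for their difference in response. The cause was not tested.

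With 1 sample left out the number ranged from 28 to 41 for RfxCas13d NTG against untransfected, 36 to 44 for HiFi-RfxCas13d NTG and for DiCas7-11 NTG, 59 to 63 for the ASO, 0 to 1 for HiFi-RfxCas13d against RfxCas13d (1 without HiFi-RfxCas13d mATXN2 replicate 3) and 10 to 18 for DiCas7-11 against RfxCas13d. For the crRNA it was 0 to 6 with RfxCas13d, 0 with HiFi-RfxCas13d and 0 to 14 with DiCas7-11. With the replicate number as a block it was 48, 48, 48 and 65 against untransfected cells, in the order RfxCas13d, HiFi-RfxCas13d, DiCas7-11 and ASO, and 16, 1 and 3 for the crRNA. Whether the numbers pair the samples could not be settled. Of 84 pairs with the same number 0 correlated above 0.1, and 13 of 24 samples correlated best with their own number among 3. With the block, more of all genes tested were called for RfxCas13d NTG against untransfected, 918 higher and 903 lower in place of 778 and 787. Among the calls of named RP genes, 319 held and 11 were lost over the alternatives, and 245 held and 37 were lost with 1 sample left out. With 3 samples a group, small differences in less abundant RP genes such as Rps6 may have been missed. The size of difference that could be detected in them was not tested.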
